A study of Mus musculus with 8 samples.

Results

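RNA on heavy (late) polysomes was compared with RNA on light (early) polysomes of the main olfactory epithelium of wild-type (WT) mice. The comparison rests on 4 of the 8 libraries of the polysome experiment, which were chosen by their titles: 2 WT late and 2 WT early libraries, 1 of each from each of 2 lysates named WT1 and WT2. The main olfactory epithelium is the sensory tissue of the nose, in which olfactory neurons are renewed throughout life from basal cells and are held by supporting (sustentacular) cells. The WT mice carried 1 or 2 floxed alleles of Mex3a, an RNA-binding protein gene, without Cre. The other 4 libraries came from conditional knockout (cKO) mice with both Mex3a alleles floxed and a Cre driver, and served to estimate the spread between libraries and to test whether the fractions differed by genotype. In all groups the tissue was treated with cycloheximide at 100 µg/mL, a drug that halts ribosomes on their mRNA, when it was dissected. Lysates were spun through sucrose, about 42 fractions of 350 µL were collected, and 50 µL each of fractions 27 to 34 (early) or 35 to 42 (late) went into a library. The labels give neither the number of mice behind a lysate nor their age, so p-values measure the spread between these lysates.

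An mRNA in translation carries several ribosomes at once, and each adds mass that carries the complex further down the gradient. How many ribosomes fit depends on the length of the coding sequence, on how often translation starts and on how fast ribosomes move and leave. A long coding sequence can therefore be heavy at a modest initiation rate, whereas an mRNA that codes for a small protein holds few ribosomes even when it is translated well. Short open reading frames upstream of the main one (upstream ORFs) can capture ribosomes before they reach it, and RNAs without a translated frame enter polysome fractions only to the extent that ribosomes or other large complexes hold them.

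Values are TPM, a read share that is corrected for gene length and sums to the same total in every library, so a change between fractions is a change in a gene's share of that fraction and not in its number of molecules. Read depth, inferred from the steps of the TPM values, was 12109016 and 11699629 reads in the WT early and 12341527 and 12771079 in the WT late libraries, and 18573 to 18966 genes were above 0. Across genes, log2 values correlated at 0.990 between the early and 0.991 between the late libraries, against 0.974 and 0.961 between early and late of lysates 1 and 2. The genotype tag of the WT early library of replicate 2 is that of cKO, against its title. Its Mex3a level was 116 TPM, beside 97.4 in the other early and 93.2 and 95.6 in the late WT libraries. No cKO level is given here, so these values do not decide its genotype. The library was kept as WT by its title and library name. Markers of the labelled tissue were abundant in every WT library: Omp, the marker of mature olfactory neurons, stood at 3760 and 5393 TPM in early and 2677 and 2978 in late libraries. The tissue is bulk, so the level of a marker does not separate the number of cells of a type from the RNA in each cell. By the library names each WT lysate was sampled in both fractions. The change of a marker between fractions is therefore not a comparison of cell numbers.

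A gene is said below to have risen when it was higher in late than in early WT polysomes at a Benjamini-Hochberg adjusted p under 0.05 by limma, and to have fallen when it was lower. Of 16097 genes tested, 8824 passed (54.8%), 4370 higher (27.1%) and 4454 lower (27.7%) in late polysomes. Without the early library of replicate 2, whose tag conflicts, 5817 passed. All 8824 genes moved in the same direction in both lysates. They were selected by p from these same libraries, so a gene whose lysates disagreed could hardly pass, and this is no replication. Of them 631 rose and 1268 fell by more than 2-fold. In 12967 genes (80.6%) both late libraries lay on the same side of both early libraries. With 2 libraries a group a lack of overlap is therefore the common case. The changes of the lysates correlated across genes at 0.796 and were wider in lysate 2 (SD 0.782 on the log2 scale) than in lysate 1 (SD 0.625).

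Changes between fractions ran with coding length. Across 15119 genes with an annotated coding sequence, of which 28.7% rose and 27.4% fell, Spearman's rho between a gene's coding length (its longest annotated frame) and its change between fractions was 0.624, and 0.597 and 0.613 in lysates 1 and 2 taken alone. Genes are not independent replicates, and these values are given as a description. Genes with coding sequences under 500 nt made up 21.2% and 23.2% of all TPM in the early libraries and 10.6% and 9.59% in the late libraries. Those of 1000 to under 2000 nt went from 26.6% and 25.4% to 34.7% and 35.1%. The coding length at the middle of the TPM-weighted distribution was 921 and 867 nt in early and 1257 and 1266 nt in late libraries. The early and late libraries did not overlap in any of the 5 length classes.

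**Figure D1:**
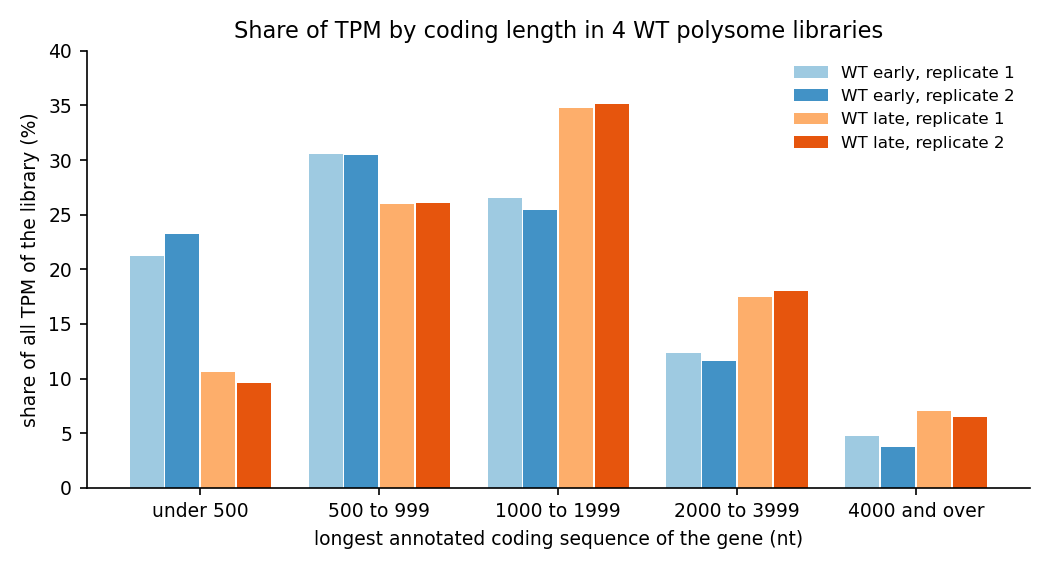
Share of all TPM of a library (%, vertical axis) that falls on genes of 5 classes of coding length (nt, horizontal axis), 1 bar for each of the 4 WT libraries. The class under 500 nt takes 21.2% and 23.2% of the early and 10.6% and 9.59% of the late libraries, and the classes from 1000 nt upward are larger in both late libraries.

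In 10 equal bins of coding length the median change climbed without a break from the shortest to the longest bin. In the shortest (median 411 nt) it was -1.07 on the log2 scale, with -0.91 and -1.22 in lysates 1 and 2, and 1267 of 1512 genes fell while 3 rose. In the bin with a median of 1212 nt it was 0.0052, with 431 genes higher and 386 lower. In the longest (median 4563 nt) it was 0.50, with 0.42 and 0.58 in the lysates, and 873 of 1511 genes rose while 21 fell. The climb was steep below about 1000 nt and shallow above it: between the bins of 2169 and 4563 nt the median moved from 0.33 to 0.50. Coding length in 50 bins took up 45.8% of the variance of the change between genes. Genes of middle length differed most among themselves, with an SD within the bin of 0.55 at a median of 1212 nt against 0.40 in the shortest and 0.36 in the longest bin.

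**Figure D2:**
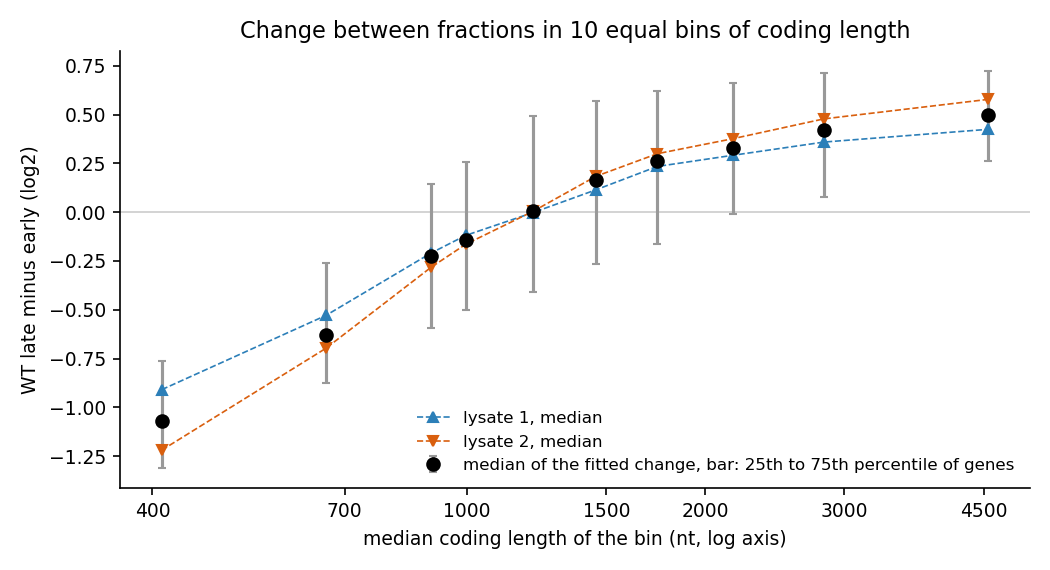
WT late-minus-early change (log2, vertical axis) against the median coding length of 10 equal bins of genes (nt, log axis). Black points are medians of the fitted change with bars from the 25th to the 75th percentile of genes, and triangles are the medians of each lysate. The median runs from -1.07 at 411 nt to 0.50 at 4563 nt, and lysate 2 spans the wider range.

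Other features of the transcript followed the change less closely. The length of the longest whole transcript gave rho = 0.347 and the number of exons 0.446, both of which follow coding length themselves (rho of 0.643 and 0.716 with it). The lengths of the untranslated leader and tail gave 0.027 and 0.061, the GC content of the coding sequence 0.0041 and the mean TPM -0.014. To see what coding length left over, the median change of genes of the same length (1 of 50 equal bins) was subtracted from each gene, and the rest is called the length-adjusted change below. It has no test of its own. The number of AUG codons in the annotated leader correlated with it at -0.125. Its median fell stepwise from 0.059 in the 7221 genes with none, over -0.028, -0.043 and -0.055 with 1, 2 and 3, to -0.092 in the 2232 genes with 4 or more. Both lysates showed the lowest value in the genes with 4 or more (-0.067 and -0.11) and the highest in those with none (0.041 and 0.068).

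Cox6b1, a small subunit of cytochrome c oxidase, shows what a short message looks like on the gradient. It lies on chromosome 7 (chr7:30616861-30626151, minus strand of GRCm38), and its whole coding sequence, printed because its shortness is the point, has 261 nt with start and stop codon in capitals.
Cox6b1: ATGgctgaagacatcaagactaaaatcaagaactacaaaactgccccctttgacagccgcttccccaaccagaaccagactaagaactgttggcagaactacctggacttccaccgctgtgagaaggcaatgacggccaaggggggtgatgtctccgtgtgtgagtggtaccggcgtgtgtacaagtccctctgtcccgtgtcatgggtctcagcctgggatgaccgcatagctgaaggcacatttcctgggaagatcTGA
Its TPM was 644 and 739 in early and 207 and 187 in late libraries. Both late libraries lay far below both early ones, a 3.79-fold lower mean after scaling (log2 change -1.91, SE 0.31, adjusted p = 0.0013). It fell further than most genes of its length: the median of its length bin was -1.31 and its length-adjusted change -0.60. The flavoprotein subunit of succinate dehydrogenase, Sdha, serves the same respiratory chain from a coding sequence of 1992 nt. It had 144 and 116 TPM in early and 325 and 337 in late libraries, and rose by 1.24 log2 (SE 0.13, adjusted p = 0.0004).

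The nuclear-encoded respiratory chain as a whole held genes that fell and genes that rose. Of 84 genes tested, 70 fell and 9 rose (83.3% and 10.7%), against 27.7% and 27.1% of all genes. The median was -1.27 (-1.08 and -1.43 in the lysates) and the median coding length 426 nt. Change and coding length correlated within the list at rho = 0.790. The most abundant members stood on either side: Cox5b fell from 1279 and 1323 TPM to 501 and 405 (log2 change -1.64, SE 0.24), Cox6c fell by 1.25 log2 (SE 0.23), and Atp5b, the catalytic subunit of ATP synthase, rose from 797 and 721 to 1321 and 1381 TPM (0.73, SE 0.15). The 9 that rose include, named after their values were seen, the catalytic subunits of ATP synthase (Atp5a1, 1.12, and Atp5b), the core subunits of complex III (Uqcrc1, 0.89, and Uqcrc2, 0.91) and the large iron-sulfur subunit of complex I (Ndufs1, 1.13). The list's summed level was 27203 to 28879 TPM in early and 14993 to 16424 in late libraries.

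Ribosomal protein mRNAs as a class took a smaller share of late than of early polysomes. Of 79 cytosolic ribosomal protein genes, 67 fell and 0 rose, with a median of -1.07 (-0.91 and -1.15 in the lysates). In the same fit 27.7% of all genes fell and 27.1% rose. Rplp2, a protein of the ribosomal stalk, had 1758 and 1965 TPM in early and 877 and 661 in late libraries (-1.39, SE 0.27, adjusted p = 0.0029), and Rps29, with a coding sequence of 168 nt, fell the furthest of those above 10 TPM (-1.72, SE 0.43, adjusted p = 0.010). Rpl8, with 771 nt, had 1646 and 1339 TPM in early and 1347 and 1258 in late libraries and did not pass (-0.30, SE 0.16, adjusted p = 0.15), though it did with voom on inferred reads (adjusted p = 0.049). The call of Rps29 was lost without early replicate 2 (adjusted p = 0.064) or late replicate 2 (0.067). Within the class the change followed coding length at rho = 0.863, and the median length-adjusted change was -0.14. These genes have many processed pseudogenes, and how reads shared with them were assigned is not given in the sources used here. The mitochondrial ribosomal proteins showed the same pattern with other genes: 61 of 76 fell and 6 rose (3 without early replicate 2 or late replicate 2), the median was -1.01 and the length-adjusted median -0.19. Mrps14 fell by 1.68 log2 (SE 0.17) from 68.7 and 83.3 to 28.1 and 21.8 TPM, and Mrps31, whose coding sequence has 1152 nt, rose by 0.92 (SE 0.17) from 21.9 and 26.0 to 49.3 and 50.0.

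Most histone mRNAs took a smaller share of late than of early polysomes. Among all genes 27.7% fell and 27.1% rose. Of 58 replication-dependent histone genes tested, whose mRNAs end in a stem-loop instead of a poly(A) tail and which a total RNA library can record, 51 fell and 1 rose, with a median of -1.29 (-1.25 and -1.38 in the lysates), close to the -1.27 of the respiratory chain. Hist1h4d had 4360 and 5047 TPM in early and 1749 and 1578 in late libraries (-1.60, SE 0.18, adjusted p = 0.0004). The linker histones Hist1h1c and Hist1h1e, at 2825 and 2398 and 2395 and 2147 TPM in early and 1981 and 2190 and 2061 and 2290 in late libraries, did not pass (-0.43 and -0.17, adjusted p = 0.11 and 0.44). Hist1h1c passed with voom on inferred reads (adjusted p = 0.021), and Hist1h1e was 0.19 under quantile normalization (adjusted p = 0.44). The riser was Hist1h1b, a linker histone with 669 nt, at 568 and 516 TPM in early and 747 and 812 in late libraries (0.42, SE 0.12, adjusted p = 0.017), a call lost without early replicate 2 (adjusted p = 0.12) or late replicate 2 (0.11). Of 11 genes listed as variant histones with poly(A) tails, of which Hist1h1c is on both lists, 8 fell and 1 rose, among them H2afz (-1.46, SE 0.14) and H3f3b (-1.11, SE 0.13), while H2afy2, whose protein has an additional large domain, rose by 0.57 (SE 0.09). Length-adjusted medians were -0.13 and -0.017. Histone genes within a cluster are near-identical in sequence, so the value of a single one is uncertain.

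**Figure D3:**
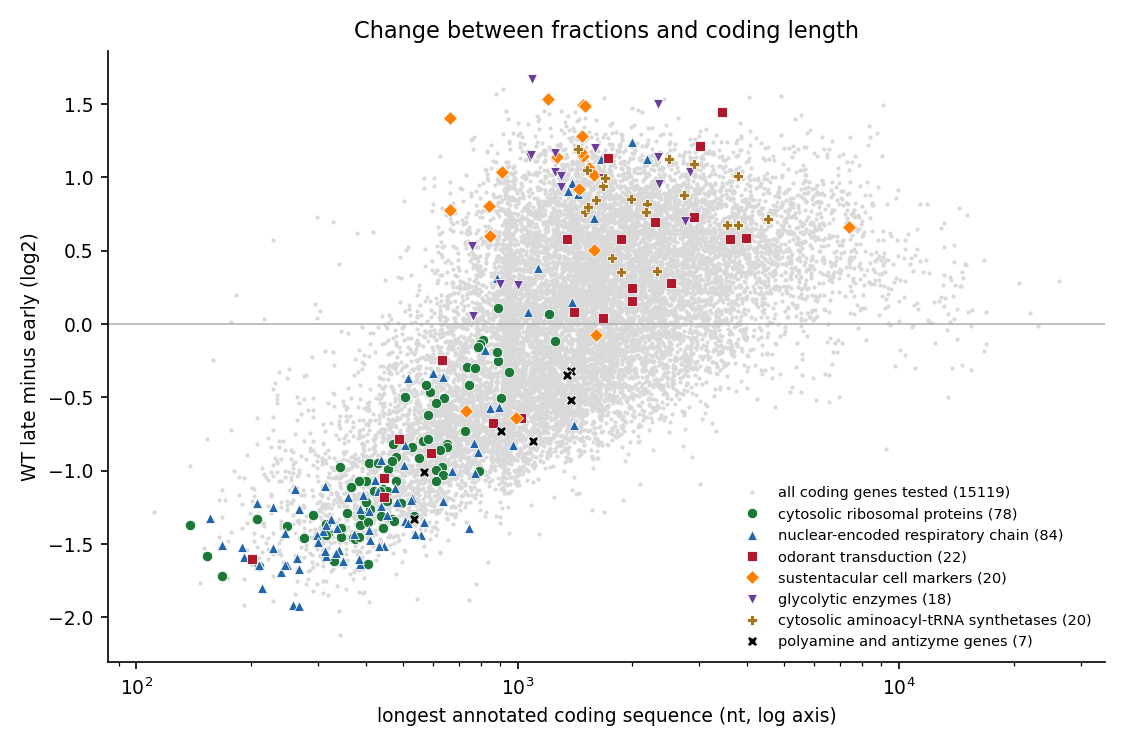
WT late-minus-early change (log2, vertical axis) against longest coding sequence (nt, log axis) for 15119 coding genes (grey) and 7 gene lists in colour, 1 point per gene. Ribosomal protein, respiratory chain and odorant transduction genes run along the trend, while glycolytic enzymes and sustentacular markers lie mostly above it and all 7 polyamine genes below it.

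Within other machines of the cell, too, the change ran with coding length, and the cause was not tested. Their counts stand beside 27.1% of all genes that rose and 27.7% that fell. Among 46 proteasome genes 22 rose and 14 fell (47.8% and 30.4%, median 0.20, rho with coding length 0.724). Psmd2, a large scaffold of the regulatory particle, had 129 and 110 TPM in early and 286 and 285 in late libraries (1.15, SE 0.16), whereas the core subunit Psmb6 went from 384 and 388 to 257 and 275 (-0.64, SE 0.10). A subunit out of step with its length was Psmd8, which fell by 1.06 log2 (SE 0.12, length-adjusted change -1.04) on 1059 nt, while Psmd4, on 1137 nt, rose by 1.04 (SE 0.13, length-adjusted change 1.06). Of 48 genes for translocation into the endoplasmic reticulum (ER), signal peptide cleavage and vesicle coats 22 rose and 18 fell (45.8% and 37.5%). Their rho with coding length was 0.871. Sec61b, a small subunit of the translocation channel, fell by 1.57 log2 (SE 0.11) from 337 and 367 to 135 and 119 TPM, and the coat subunit Copb2 rose by 1.14 (SE 0.17) from 117 and 91.4 to 248 and 247. Of 20 ER chaperones and folding enzymes 10 rose (6 without early replicate 2) and 7 fell: Calr went from 952 and 818 to 1856 and 2116 TPM (1.06, SE 0.16) and Pdia6 rose by 1.09 (SE 0.16), while Manf fell by 1.21 (SE 0.17) and Ppib by 0.72 (SE 0.14). Among 66 translation initiation and elongation factors 24 rose and 18 fell (36.4% and 27.3%), the latter near the share of all genes. Eef1a2, the neuronal and muscle form of elongation factor 1 alpha, rose by 1.09 log2 (SE 0.12) from 218 and 215 to 458 and 543 TPM. Eif5a fell by 1.36 (SE 0.13) on a coding sequence of 462 nt, and Eif4g2, a relative of the scaffold factor eIF4G, fell by 0.83 (SE 0.14). Its longest annotated frame has 2718 nt and that of its APPRIS principal transcript, the main isoform by annotation, 483 nt, so no length-adjusted value is given.

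Some functional groups were heavier than other genes of their length. Beside the counts below stand 27.1% of all genes that rose and 27.7% that fell. All 20 cytosolic aminoacyl-tRNA synthetases, which charge tRNAs with amino acids, rose, with a median of 0.83 and a length-adjusted median of 0.52, positive in 20 of 20. With 1 WT library left out the median was 0.76 to 0.88, and fewer of the 20 genes passed. Wars went from 35.5 and 34.7 to 83.8 and 91.6 TPM (1.19, SE 0.14) and Gars from 165 and 155 to 293 and 319 (0.82, SE 0.11), and the smallest rise was that of Kars (0.35, SE 0.12, adjusted p = 0.036), whose call was lost without any 1 of the 4 WT libraries (adjusted p = 0.079 to 0.16), with the lysate as a replicate block (0.052) and without a mean-variance trend (0.064). Of 18 glycolytic enzymes 15 rose and 0 fell, with a median of 1.03 (0.88 and 1.21 in the lysates), a length-adjusted median of 0.91 and a positive length-adjusted change in all 18. Pkm had 376 and 314 TPM in early and 882 and 820 in late libraries (1.20, SE 0.16), Aldoa went from 382 and 318 to 800 and 892 (1.17, SE 0.13) and Pfkl was 2.88-fold higher after scaling. Ldhb, at 913 and 806 against 1162 and 1063 TPM, did not pass (0.27, SE 0.13, adjusted p = 0.11) but did in 4 alternatives (adjusted p = 0.017 to 0.047). Together glycolytic mRNAs took 2288 to 2658 TPM of early and 4703 to 4787 TPM of late libraries. Of 15 tubulin genes 10 rose and 1 fell, with a median of 0.99 and a length-adjusted median of 0.90. Tubb4b went from 794 and 723 to 1983 and 2279 TPM (1.38, SE 0.16) and Tuba1a from 993 and 948 to 2029 and 2226 (1.02, SE 0.15), while Tubg2, a centrosomal gamma tubulin, fell by 0.72 (SE 0.13). Actb, cytoplasmic actin, rose from 3336 and 2931 to 6711 and 7896 TPM (1.11, SE 0.21, adjusted p = 0.0027). Tubulins and actins have close copies, so shared reads make single values uncertain. Immediate early genes, transcripts of which are short-lived, had 12 of 24 higher (7 without early replicate 2) and 4 lower: Jun rose by 0.82 (SE 0.11) and Ier5 by 0.98 (SE 0.12).

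The largest rise among genes at 10 TPM or more was that of Aldoc, an aldolase of glycolysis (chr11, GRCm38), from 39.7 and 23.3 TPM in early to 108 and 106 in late libraries (1.67 log2, SE 0.25, adjusted p = 0.0010). The 12 largest included the water and glycerol channel Aqp3, which went from 225 and 152 to 562 and 626 TPM (1.57, SE 0.21), the lipid transfer protein gene Sec14l3, from 838 and 685 to 2292 and 2449 (1.54, SE 0.19), the cytochrome P450 gene Cyp2g1, from 998 and 926 to 2776 and 3080 (2.83-fold after scaling), the carboxylesterase Ces1a (1.54, SE 0.31) and the chitinase-like Chil4 (1.52, SE 0.34). Madd, a regulator of Rab GTPases (1.56, SE 0.17), Mapk8ip3, a scaffold of axonal transport (1.55, SE 0.13), and the splicing factor Sart1 (1.53, SE 0.14) have long coding sequences. Cyp4b1 (1.51, SE 0.27) and Pfkl complete the 12 with Ubb. The 12 largest falls were mostly of very short messages: beside Cox6b1 they included Nop10, a component of the RNA pseudouridylation complex with 192 nt (-1.92, SE 0.28), Lsm7 of the mRNA decay and splicing rings (-1.84, SE 0.22), the cytochrome oxidase assembly factor Pet100 (-1.89, SE 0.25) and the acylphosphatase Acyp2 (-1.85, SE 0.24). Pcbd2, Pdzk1ip1, Efcab10 and Pin4 fell by 1.90, 1.87, 1.83 and 1.83 log2, the first of these not without early replicate 2 (adjusted p = 0.066) or late replicate 1 (0.062). Cox7a1, Dynlt1b and Scarna8, a small RNA of Cajal bodies, rested on few reads in late libraries (9 and 1, 8 and 6, and 0 and 4), and their changes of -1.92, -1.96 and -2.63 are therefore imprecise (SE 0.55, 0.33 and 0.80). The call of Cox7a1 was lost without early replicate 1 (adjusted p = 0.098), and that of Scarna8 without early replicate 1 (0.058) or 2 (0.11) and in the fit of the WT libraries alone (0.051).

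Ubb, which codes for polyubiquitin, was among the 12 largest rises. It lies on chromosome 11 (chr11:62551171-62553213, plus strand of GRCm38), and its coding sequence of 915 nt strings 4 copies of the ubiquitin frame of 228 nt head to tail. The first 2 are printed to show how alike they are. Capitals mark the 5 bases at which they differ.
Ubb unit 1: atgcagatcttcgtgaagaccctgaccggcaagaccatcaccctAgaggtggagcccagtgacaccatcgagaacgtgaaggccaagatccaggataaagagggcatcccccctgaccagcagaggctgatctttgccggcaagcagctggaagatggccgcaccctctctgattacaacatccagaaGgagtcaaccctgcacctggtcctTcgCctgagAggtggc
Ubb unit 2: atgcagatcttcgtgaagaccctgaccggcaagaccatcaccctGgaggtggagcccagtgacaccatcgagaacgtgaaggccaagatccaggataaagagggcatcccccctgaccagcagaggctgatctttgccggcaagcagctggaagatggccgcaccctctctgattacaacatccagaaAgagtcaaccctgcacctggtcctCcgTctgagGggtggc
Copies 3 and 4 differ from the first at 2 and 10 bases. Ubb had 65.2 and 64.0 TPM in early and 205 and 221 in late libraries, 3.07-fold more after scaling (1.60 log2, SE 0.14, adjusted p = 0.0004), and its length-adjusted change was 1.82. Rps27a, which codes for 1 ubiquitin fused to a ribosomal protein, fell from 457 and 489 to 265 and 267 TPM (-0.93, SE 0.19). Copies this alike share reads within and between ubiquitin genes, so the split of reads among them is uncertain.

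Among neuronal transcripts, the odorant transduction cascade had changes that ran with coding length. Its shares of genes that rose and fell were 45.5% and 31.8%, against 27.1% and 27.7% of all genes. In this cascade a receptor activates a G protein (Gnal with Gnb1 and Gng13), adenylyl cyclase Adcy3 makes cAMP, and cAMP opens a cation channel (Cnga2, Cnga4, Cngb1), whose calcium current opens the chloride channel Ano2. Of 22 genes 10 rose and 7 fell (4 without early replicate 2 or late replicate 2 and under quantile normalization), the median was 0.20 and rho with coding length was 0.868. Gng13, with 201 nt the shortest, had 1673 and 1822 TPM in early and 677 and 565 in late libraries (-1.60, SE 0.20, adjusted p = 0.0006). Adcy3, with 3435 nt, had 175 and 151 TPM in early and 435 and 529 in late libraries (1.45, SE 0.17, adjusted p = 0.0005). Other members are named after their values were seen: Ano2, Cnga4, Cngb1 and Gnal rose by 1.22, 1.13, 0.59 and 0.58, and Gnb1 fell by 0.64, a call lost without early replicate 2 (adjusted p = 0.059) or late replicate 2 (0.057). Calmodulin, which ends the response through the channel and the cyclase, is coded by short messages, and Calm2 and Calm3 fell by 1.18 and 1.05. Omp fell by 0.78 (SE 0.22, adjusted p = 0.018) on 489 nt, with a length-adjusted change of 0.15. Its call was lost without early replicate 2 (adjusted p = 0.13), late replicate 1 (0.10) or late replicate 2 (0.064), with no filter on low values (0.077) and under quantile normalization (0.16). The summed level of the list was 23079 to 26628 TPM in early and 16601 to 16606 in late libraries.

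Olfactory receptor genes, most of which have a single coding exon of similar length (median 939 nt), moved little. Of 864 tested, 24 rose and 64 fell, 2.78% and 7.41%, against 27.1% and 27.7% of all genes. The median was -0.14 (-0.060 and -0.26 in the lysates) and the length-adjusted median 0.017. The balance of calls depended on the library: 13 rose and 14 fell without early replicate 2 (median -0.071), 14 and 39 without late replicate 1, 6 and 22 without late replicate 2, and 11 rose without early replicate 1. It also depended on the fit, with 39 higher and 120 lower without a mean-variance trend, 111 lower with voom on inferred reads (115 with the lysate as a replicate block), 38 higher and 41 lower under quantile normalization, and 9 higher and 17 lower of the 99 receptors at 5 TPM or more. The most abundant, Olfr536, had 27.3 and 31.0 TPM in early and 43.3 and 47.7 in late libraries (0.52, SE 0.14, adjusted p = 0.014), and Olfr1507 rose by 0.75 (SE 0.17) from 12.2 and 9.31 to 19.3 and 20.8. Olfr24 fell by 0.72 (SE 0.20) from 10.7 and 9.74 to 7.93 and 4.86 TPM. The call of Olfr536 was lost without early replicate 1 (adjusted p = 0.081) or late replicate 2 (0.085), that of Olfr1507 without early replicate 2 (0.059), and that of Olfr24 without early replicate 1 (0.072), early replicate 2 (0.054) or late replicate 2 (0.094). Summed receptor mRNA was 2732 to 3191 TPM in early and 2750 to 2799 in late libraries. Each receptor is used by few neurons and lies at low TPM, where the pseudocount shrinks changes, and receptors of a cluster are alike in sequence.

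Markers of mature neurons (13 of 20 higher and 6 lower, 3 without early replicate 2 or late replicate 2) and immature neurons (7 of 20 higher and 4 lower, 7 with voom on inferred reads) again included short messages that fell and long ones that rose. The calcium-binding protein gene S100a5 fell from 5521 and 5769 to 2215 and 1996 TPM (-1.53, SE 0.23) and Stoml3, a membrane protein of the sensory cilia, by 0.68 (SE 0.16), a call lost without early replicate 2 (adjusted p = 0.061) or late replicate 2 (0.055) and under quantile normalization (0.22). Gng8, a G protein gamma subunit of immature neurons, fell by 1.60 (SE 0.17) from 216 and 209 to 73.5 and 76.7 TPM, the microtubule regulator Stmn1 fell by 1.11 (SE 0.17), the neuronal tubulin Tubb3 rose by 0.99 (SE 0.11) and Dpysl5, a protein of growth cone guidance, by 1.18 (SE 0.12). Among 25 presynaptic genes 12 rose and 6 fell (48% and 24%). For mature neuron markers these shares were 65% and 30%, and for immature ones 35% and 20%. The mature list shares members with the odorant transduction list, and Adcy3 is the largest rise of both. Of all genes 27.1% rose and 27.7% fell. Vamp2, the vesicle SNARE, fell by 1.12 (SE 0.13), whereas synapsin 1, Syn1, rose by 1.15 (SE 0.14) and the vesicle protein synaptophysin, Syp, by 0.92 (SE 0.11), the latter on only 942 nt (length-adjusted change 1.09). Clustered protocadherins, adhesion proteins that neurons use to tell self from non-self, had 28 of 59 higher and 0 lower (median 0.61). The 28 became 15 without early replicate 2, 16 without late replicate 1 and 17 without late replicate 2. Pcdhb1 had 87.6 and 73.5 TPM in early and 216 and 230 in late libraries (1.36, SE 0.20). Members of these clusters share exons or sequence.

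Sustentacular cell markers had a median of 1.03 (0.87 and 1.19 in the lysates), as high as that of the glycolytic enzymes. In the list 16 of 20 were higher and 2 lower, against 27.1% and 27.7% of all genes. The length-adjusted median was 0.99. Without early replicate 2 the median was 0.84, and fewer of the markers passed. These cells are rich in the detoxifying enzymes of the olfactory mucosa, among them cytochromes P450, which sit in the ER membrane. Cyp2g1 and Sec14l3 are named above. Cyp2a5 rose from 2051 and 1424 to 4228 and 3922 TPM (1.14, SE 0.30, adjusted p = 0.011), and Gsta4, a glutathione transferase with only 666 nt, rose from 234 and 163 to 562 and 553 (1.40, SE 0.20), the highest length-adjusted change of the genes named by rule (2.00). Cbr2, a carbonyl reductase with 732 nt, fell from 4035 and 4083 to 2739 and 3059 TPM (-0.59, SE 0.18), a call lost without any 1 of the 4 WT libraries (adjusted p = 0.072 to 0.13) and in 4 other alternatives (0.054 to 0.42). Lrrc26 fell by 0.64 (SE 0.10). The call of Cyp2a5 was lost without early replicate 2 (0.095) or late replicate 1 (0.061). The summed level of the list was 9780 to 11354 TPM in early and 18584 to 19182 in late libraries.

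Secreted proteins of the nasal glands were found on both sides. Of 26 genes tested, 7 rose and 8 fell (26.9% and 30.8%), near the shares of all genes (27.1% and 27.7%), and rho with coding length was 0.830. The 7 rises became 1 without early replicate 2 and 4 without late replicate 1 or late replicate 2, and the 8 falls became 5 without early replicate 1. Bpifa1, a mucosal defence protein of the BPI fold family, rose from 3716 and 2941 to 6329 and 7820 TPM (0.98, SE 0.26, adjusted p = 0.013), and the iron-binding protein lactoferrin, Ltf, rose from 162 and 93.3 to 414 and 317 (1.44, SE 0.44, adjusted p = 0.022). The odorant-binding lipocalin Obp2a fell from 4786 and 3937 to 2552 and 2266 TPM (-0.96, SE 0.18), and the secretoglobin Scgb1c1 from 5404 and 6145 to 2537 and 2178 (-1.40, SE 0.23). Length-adjusted changes were 1.31 for Bpifa1, -0.12 for Obp2a and -0.09 for Scgb1c1. The call of Bpifa1 was lost without early replicate 2 (adjusted p = 0.099) or late replicate 2 (0.089) and with no filter on low values (0.072), and that of Ltf without early replicate 2 (0.15), late replicate 1 (0.11) or late replicate 2 (0.055).

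Markers of basal and other cells differed from list to list, beside 27.1% of all genes that rose and 27.7% that fell. Of 19 globose basal and progenitor markers 11 rose (6 without late replicate 1 or late replicate 2, 7 without early replicate 2) and 1 fell: the replication helicase subunit Mcm5 rose from 13.97 and 12.3 to 35.3 and 39.2 TPM (1.33, SE 0.12), the cell cycle gene Ccnd1 rose by 0.43 (SE 0.10, a call lost without late replicate 2, adjusted p = 0.051) and the transcription factor Hes6 fell by 1.01 (SE 0.16). Of 15 horizontal basal markers 9 rose (3 without early replicate 2, late replicate 1 or late replicate 2) and 1 fell, with Krt17 at 7.37 and 4.00 against 17.1 and 18.96 TPM (1.46, SE 0.23) and Perp lower by 0.83 (SE 0.12). In ensheathing glia, which wrap olfactory axons, 7 of 14 markers rose (4 without early replicate 2 or late replicate 1) and 2 fell: Sox10 rose by 1.34 (SE 0.13) and Erbb3 by 1.11 (SE 0.17), while S100b fell by 1.47 (SE 0.26). Apod, a lipocalin of glia with 567 nt, rose from 260 and 179 to 455 and 431 TPM (0.93, SE 0.19, length-adjusted change 1.72). Of 16 red cell and immune markers 2 rose and 5 fell (3 without early replicate 2 or late replicate 1), among them the small neutrophil proteins S100a8 (-1.59, SE 0.20) and S100a9 (-1.44, SE 0.28), and the receptor Csf1r rose by 0.86 (SE 0.18). Of 38 collagens, structural proteins with very long coding sequences, 10 rose (26.3%) and 0 fell, with a median of 0.53 and a length-adjusted median of 0.025. With the lysate as a replicate block 25 rose (26 in the WT libraries alone), and 16 with voom on inferred reads (29 with the block). Without early replicate 1, 17 rose (median 0.82), against 4 without early replicate 2 (median 0.22) and 4 without late replicate 1 (median 0.37). The early libraries differed in these genes: Col1a1 stood at 8436 and 4996 TPM in early and 11534 and 8861 in late libraries and did not pass (0.53, SE 0.33, adjusted p = 0.21), but did with voom on inferred reads and the lysate as a replicate block (adjusted p = 0.0052). Markers of the olfactory bulb and brain were low, at a summed 267 to 293 TPM in early and 396 to 407 in late libraries, and 2 of 11 rose and 1 fell. Genes of motile cilia had 10 of 38 higher (6 without late replicate 2) and 10 lower (6 without early replicate 1 or late replicate 1 and in TPM as deposited). Their median of 0.046 turned to -0.11 without the early library of replicate 2 and to -0.053 without the late library of replicate 1.

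**Figure D4:**
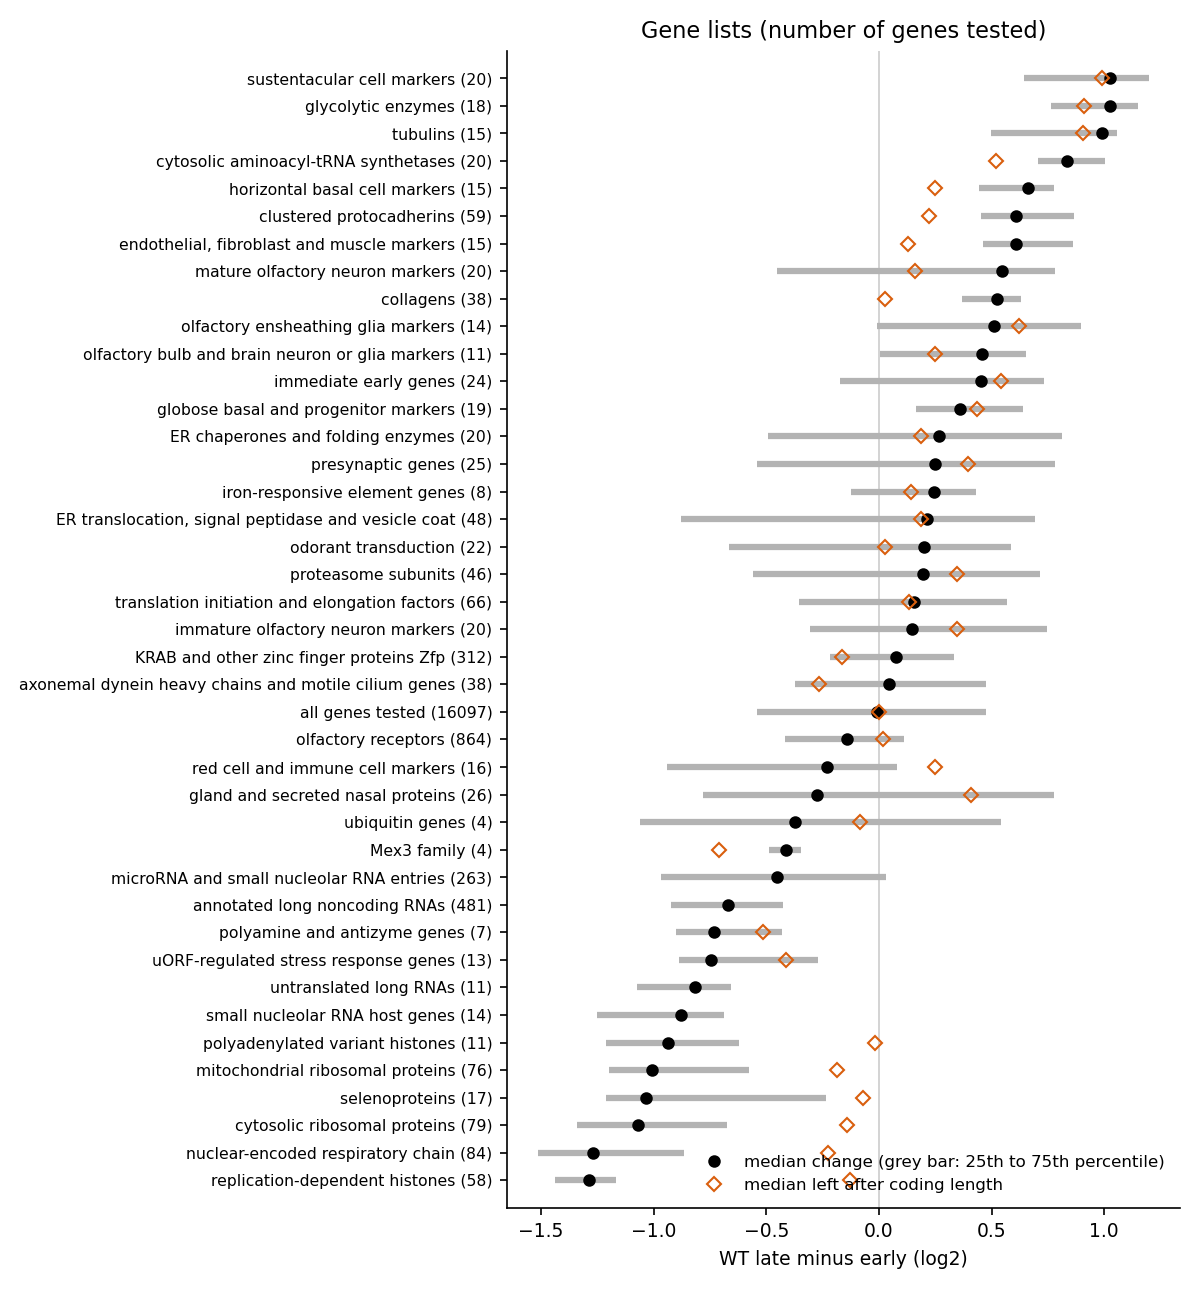
Median WT late-minus-early change (log2, horizontal axis) of 39 gene lists, of annotated long noncoding RNAs and of all genes tested, with the number of genes tested in parentheses. Black points are medians, grey bars run from the 25th to the 75th percentile of members, and open diamonds are medians of the length-adjusted change. Replication-dependent histones (-1.29) and the respiratory chain (-1.27) are at the low end and glycolytic enzymes and sustentacular markers (both 1.03) at the high end, and diamonds lie close to 0 for most lists with low medians.

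Transcripts known for control by upstream ORFs were mostly lighter than other genes of their length. These mRNAs let ribosomes translate short upstream frames in unstressed cells and reach the main frame when initiation slows. Their counts stand beside 27.7% of all genes that fell and 27.1% that rose. Of 13 such genes of the stress response 9 fell and 3 rose (1 without early replicate 2, late replicate 1 or late replicate 2), with a median of -0.74 and a length-adjusted median of -0.41, negative in 11 of 13. Atf4, the transcription factor of the integrated stress response (chr15:80255184-80257541, plus strand of GRCm38), had 396 and 448 TPM in early and 259 and 232 in late libraries (-0.89, SE 0.13, adjusted p = 0.0009, length-adjusted change -0.70). Its relative Atf5 (chr7:44812256-44816658, minus strand), abundant in olfactory neurons, had 1498 and 1827 TPM in early and 883 and 998.9 in late libraries (-0.92, SE 0.17, adjusted p = 0.0027, length-adjusted change -0.59). In the annotated leaders 3 upstream ATGs were found in Atf4 and 2 in Atf5. In each gene the last of them opens a frame that runs past the main start codon, of 59 codons in Atf4 and 58 in Atf5. Ddit3 fell by 1.13 (SE 0.14) from 196 and 204 to 109 and 88.1 TPM and has 2 upstream ATGs. The list's largest rise was that of Eprs, from 95.7 and 74.3 to 162 and 139 TPM (0.72, SE 0.22, adjusted p = 0.024). Its length-adjusted change was 0.20 and its annotated leader has 0 upstream ATGs. How its call fared under the alternatives is not given here. Ppp1r15b (chr1:133131143-133139783, plus strand) has 3 and rose, from 174 and 181 to 232 and 234 TPM (0.29, SE 0.09, adjusted p = 0.029, length-adjusted change -0.09). That call was lost without any 1 of the 4 WT libraries (adjusted p = 0.075 to 0.12), without a mean-variance trend (0.052) and in the fit of the WT libraries with the lysate as a replicate block (0.059). Complete short upstream frames are printed to compare these leaders, with start and stop codons in capitals and positions counted from 1 at the first base of the annotated transcript.
Atf4, position 399 to 410: ATGgcgtatTAG
Atf5, position 122 to 133: ATGgctctgTAG
Ppp1r15b, position 103 to 111: ATGacgTGA
Ppp1r15b, position 326 to 352: ATGgtggagcgatctcacacggccTAG

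The genes of polyamine synthesis and its feedback control gave a like picture. Polyamine levels regulate several of these mRNAs during translation, through upstream frames (Odc1, Azin1) or a frameshift (the antizymes). Beside the counts below stand 27.7% of all genes that fell and 27.1% that rose. All 7 tested fell (4 without late replicate 2 and in TPM as deposited), with a median of -0.73 and a negative length-adjusted change in each (median -0.51). Sat1, the acetylase that starts polyamine breakdown (chrX:155213132-155216449, minus strand), had 95.9 and 97.9 TPM in early and 41.3 and 40.7 in late libraries (-1.33, SE 0.12, adjusted p = 0.0004), antizyme Oaz2 fell by 1.01 (SE 0.15), ornithine decarboxylase Odc1 (chr12:17544794-17551505, plus strand) by 0.32 (SE 0.09, from 105 and 102 to 93.0 and 85.6 TPM) and the antizyme inhibitor Azin1 (chr15:38487427-38519266, minus strand) by 0.34 (SE 0.10). The calls of these last 2 did not stand in TPM as deposited (adjusted p = 0.098 and 0.088). That of Odc1 was also lost without early replicate 1 (0.074), early replicate 2 (0.076) or late replicate 2 (0.14), and that of Azin1 without early replicate 2 (0.13), late replicate 1 (0.076) or late replicate 2 (0.086). Upstream ATGs number 2 in the leader of Sat1, 2 in that of Odc1 and 3 in that of Azin1. Only 1 complete short frame of each leader is shown, in the same notation as above.
Sat1, position 165 to 179: ATGgtgccagccTGA
Odc1, position 128 to 154: ATGacgacgtgctcggcgtataagTAG
Azin1, position 463 to 486: ATGatagggggttccatctccTAA

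Selenoproteins read a TGA codon within the frame as selenocysteine, a slow step of elongation, with the help of a hairpin in the tail of the mRNA. Of 17 tested, 12 fell and 1 rose (70.6% and 5.88%), against 27.7% and 27.1% of all genes. The median was -1.04 but the length-adjusted median only -0.072. Selm fell from 644 and 672 to 265 and 242 TPM (-1.48, SE 0.13), Gpx3, the plasma glutathione peroxidase, from 422 and 530 to 193 and 202 (-1.36, SE 0.13), and Selk from 524 and 487 to 391 and 336 (-0.59, SE 0.11). Their length-adjusted changes were -0.38, -0.76 and 0.72. They are shown around the TGA because its place in the frame differs: codon 48 in Selm (435 nt), codon 73 in Gpx3 (678 nt) and codon 92 in Selk (282 nt), where it is near the end. The genes lie at chr11:3514684-3517351, chr11:54902453-54910377 and chr14:29968308-29975662, on the plus strand of GRCm38.
Selm: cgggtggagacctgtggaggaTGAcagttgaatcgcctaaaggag
Gpx3: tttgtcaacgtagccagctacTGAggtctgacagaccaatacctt
Selk: cctcctccaatggctggtggaTGAggaagg
Sepp1, which carries selenium in plasma and has several such codons, fell from 292 and 337 to 126 and 124 TPM (-1.43, SE 0.14) and was among the 6 lowest genes after length (-1.38). The call of Selk was lost under quantile normalization (adjusted p = 0.060). Among the iron-responsive genes below 37.5% rose, beside 27.1% of all genes. Of 8 genes with iron-responsive elements 3 rose (1 without early replicate 2 or late replicate 2) and 0 fell. The ferritin subunits Fth1 and Ftl1, whose leaders bind an iron-sensing repressor, had 283 and 236 and 286 and 224 TPM in early and 259 and 210 and 246 and 204 in late libraries and did not pass (-0.25 and -0.29, adjusted p = 0.27 and 0.35), but did with voom on inferred reads and the lysate as a replicate block (0.049 and 0.043).

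The 4 Mex3 genes, a family of RNA-binding proteins, had coding sequences of 1560 to 2154 nt and negative length-adjusted changes, with a median of -0.71. Mex3c fell from 79.7 and 89.1 to 61.8 and 59.6 TPM (-0.57, SE 0.11), and Mex3b and Mex3d fell by 0.37 and 0.46 (SE 0.10 and 0.12). Mex3a, the gene floxed in these mice, did not pass (-0.27, SE 0.18, adjusted p = 0.22), but did with voom on inferred reads and the lysate as a replicate block (0.043). The calls of Mex3b and Mex3d were lost without early replicate 2 (0.082 and 0.095), that of Mex3b also without late replicate 2 (0.10) and in TPM as deposited (0.066), and that of Mex3d without late replicate 1 (0.076). Of 312 Zfp genes 55 rose and 46 fell, fewer of either kind than among all genes (17.6% and 14.7%), and the length-adjusted median was -0.16. The counts became 27 and 17 without early replicate 2, 36 and 27 without late replicate 1 and 35 and 20 without late replicate 2, and 28 fell without early replicate 1 and in TPM as deposited. Zfp664 fell from 189 and 207 to 133 and 124 TPM (-0.72, SE 0.10) and Zfp622, a factor of ribosome assembly, rose by 1.07 (SE 0.19). With Sepp1, the genes furthest below their length were Dmkn (-1.27 log2, length-adjusted change -1.43), Brdt (-0.91, -1.39), Erich2 (-1.13, -1.34), Prune2 (-0.85, -1.28) and the elongation factor of RNA polymerase II Ell2 (-0.94, -1.27). Furthest above it, beside Gsta4, Aqp3 and Ubb, were Tmem265 (0.70, 1.89), a call lost without early replicate 2 (adjusted p = 0.15) or late replicate 2 (0.19) and with no filter on low values (0.055), the small heat shock protein gene Hspb1 (1.15, 1.84) and the prostaglandin synthase Ptgds (1.00, 1.79), whose call was lost without early replicate 2 (0.099) or late replicate 2 (0.080). Where the longest annotated isoform is not the one this tissue makes, these adjusted values are off.

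Exceptions to the order by length were rare at its ends. Among all coding genes tested 28.7% rose and 27.4% fell. Of 1793 genes with coding sequences under 600 nt 1482 fell and 9 rose. The risers, listed after their values were seen, included Prdx1, an abundant peroxide-reducing enzyme (351 and 334 TPM in early, 457 and 543 in late libraries, 0.43 log2, SE 0.11), the growth factor Igf2 (0.51, SE 0.14), Apod and Ptgds. Ptn, Tagln2, Vsnl1 and Tmem178b were also among them. The calls of Prdx1 and Igf2 were lost without early replicate 2 (adjusted p = 0.076 and 0.10) or late replicate 2 (0.10 and 0.085). Of 1988 genes with coding sequences over 3000 nt 1123 rose and 39 fell.

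Long RNAs without a known protein product were found in both fractions and fell more often than they rose. Of 481 annotated long noncoding RNAs 218 fell and 7 rose, beside 27.7% and 27.1% of all genes, with a median of -0.67 (-0.56 and -0.82 in the lysates), and their summed level was 7208 to 7337 TPM in early and 4037 to 4686 in late libraries. Of 11 well-known ones 7 fell (4 without early replicate 1, 3 without late replicate 2) and 0 rose. Malat1, a nuclear RNA of splicing speckles, had 2231 and 2088 TPM in early and 1094 and 782 in late libraries (-1.33, SE 0.19, adjusted p = 0.0008). Neat1, the scaffold of paraspeckles, fell from 17.1 and 20.03 to 8.58 and 7.66 (-1.19, SE 0.20) and Firre from 24.6 and 18.5 to 14.1 and 8.39 (-1.01, SE 0.26), a call lost without early replicate 1 (adjusted p = 0.068) or late replicate 2 (0.073). Of 14 host genes of small nucleolar RNAs, whose spliced RNAs are thought to be decayed upon translation, 8 fell (5 without early replicate 1, 3 without early replicate 2 or late replicate 2, and 5 with no filter on low values) and 0 rose: Snhg18 by 1.32 (SE 0.14), Snhg1 by 1.07 (SE 0.24), Gas5 by 0.83 (SE 0.26) and Snhg3 by 1.72 (SE 0.36). The call of Gas5 was lost without early replicate 2 (adjusted p = 0.14) or late replicate 2 (0.15), with no filter on low values (0.051) and with the lysate as a replicate block (0.054). MicroRNA and small nucleolar RNA entries, which such libraries record poorly, had 22 of 263 lower (8.37%) and 4 higher (1.52%), with medians of 0 and -0.46 in the lysates. In the fit of the WT libraries alone 47 were lower (81 with the lysate as a replicate block), with voom on inferred reads 9 of 251, and without early replicate 2, 14. A fall such as that of Snord38a rested on 3 and 6 reads in early and 0 and 0 in late libraries, so no fold is given.

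**Figure D5:**
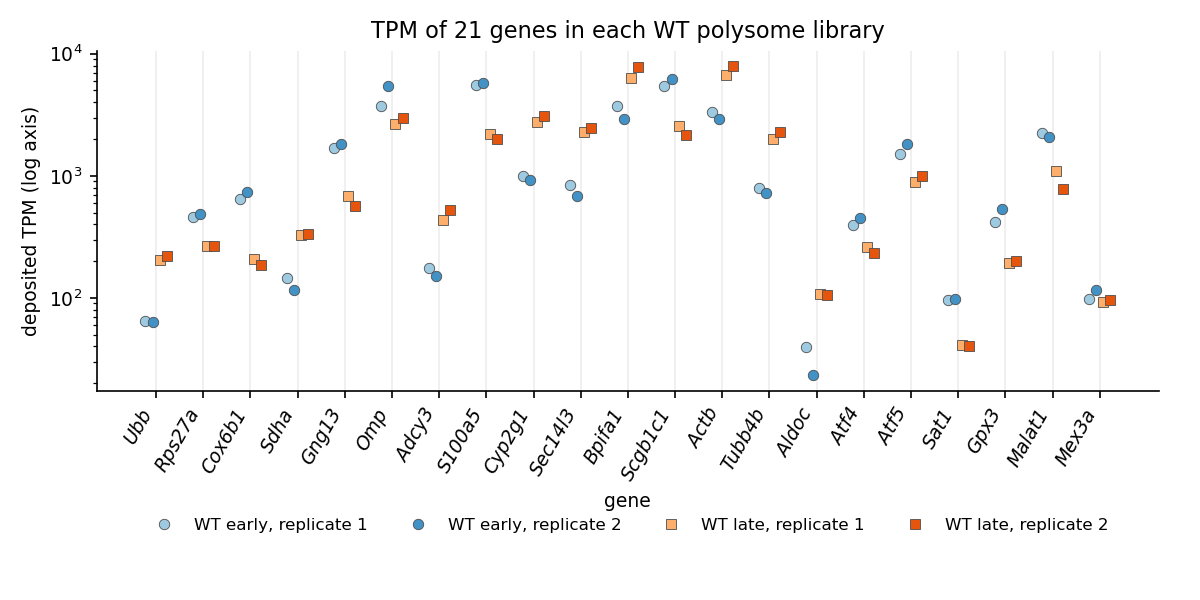
Deposited TPM (log axis) of 21 genes in each WT library, with circles for early and squares for late polysomes. Late libraries lie above early ones for Ubb, Sdha, Adcy3, Cyp2g1, Sec14l3, Bpifa1, Actb, Tubb4b and Aldoc and below them for the other 12 genes, with the smallest distance in Mex3a (97.4 and 116 against 93.2 and 95.6).

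The same contrast was set against that of cKO mice in the interaction of fraction and genotype. A single gene of 16097 passed (0.00621%), Mir6541, on 1 read in each of 4 libraries, and 459 had an unadjusted p under 0.05. No gene named above passed this test, which does not show that the fractions are alike in both genotypes.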

How the data were processed

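The authors deposited 1 table of TPM (transcripts per 1000000) for 21765 gene symbols. FastQC, cutadapt, STAR and DESeq2 and the build mm10 (GRCm38) are named in the submitters' processing notes; their versions, the annotation and how TPM was counted are not given in the sources used here. Libraries were made with a stranded total RNA kit for low input, per the labels. The Cre line and some named genes are not reported here. No mitochondrial gene is listed, and 27 symbols look like dates, none of which is named.

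TPM was scaled by median ratios (factors 0.973 to 1.06 in WT) and tested as log2(scaled TPM + 1) with limma 3.58.1 in R 4.3.3. Log2 changes are on this scale, which understates those of low genes. The fit covered 16097 genes whose deposited TPM averaged 1 or more over the 8 libraries, in 4 groups, which share 1 estimate of the spread, with a mean-variance trend, two-sided p-values and Benjamini-Hochberg adjustment at 0.05. Whole reads were inferred from TPM steps for 19783 genes above 0 in at least 2 libraries (100%, within 0.001 of a whole number) and served voom as an alternative. Coding sequences came from GENCODE on GRCm38, with RefSeq synonyms for older symbols, and 93.9% of genes tested had one; the printed sequences were read from that genome.

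Early and late libraries are paired by the lysate in their library names. Their deviations from group means correlated at 0.0862 across genes. The replicate block moved no count over all genes by over 1.5 times, but did so for collagens.

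Named genes were the 12 largest rises and 12 largest falls among called genes with at least 10 TPM in a group, no overlap and no placeholder symbol; per list the 3 most abundant members and the largest rise and fall; 12 fixed genes; and the 6 highest and 6 lowest called genes after length. The comparison and the lists were chosen with earlier results of these data known. On simulated data of 16085 genes with 200 changed 2-fold, limma recovered 120 with 6 false calls and voom 169 with 9. The simulated libraries were drawn independently, with a fixed spread and no lysate effect, and far fewer genes changed than were called in the data. These counts therefore do not give the error rate of the contrast between fractions. Alternatives were other pseudocounts, filters and scalings, no trend, WT libraries alone, voom, the lysate as a block and leaving out each library. Voom with the block and the APPRIS principal coding sequence were added after seeing the data. Figures were drawn with matplotlib.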

Additional observations from a re-analysis of the deposited data

Results flagged for a closer look

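The late-minus-early change of Mir6541 was unlike in WT and cKO mice, with an interaction of 5.69 on the log2 scale by limma. The gene had 1 inferred read in both WT late and both cKO early libraries and 0 reads in the other 4, and on a gene this short 1 read is worth 5.73 to 6.45 TPM. With voom on inferred reads no gene passed the interaction, and 396 had an unadjusted p under 0.05.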

How the results depend on the processing

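The count of 8824 genes ranged from 5817 (without WT early replicate 2) to 7718 (without WT early replicate 1) when 1 WT library was left out, where the lone library of its group is assumed to vary like the other groups. With the lysate as a replicate block it was 8660, and 9139 in the WT libraries alone with that block. In TPM as deposited 56.9% of calls were higher in late polysomes against 49.5% after scaling, and the median of all genes was 0.078 against -0.0094. For the interaction of fraction and genotype, where 1 gene passed, 6 did when low genes were kept (710 at an unadjusted p under 0.05) and 2 without a mean-variance trend (523). It was 0 at 5 TPM or more (326), with voom on inferred reads (396) and with voom and the replicate block (390). The rank correlation of 0.624 with coding length became 0.347 with the longest transcript, 0.642 at 5 TPM or more, 0.597 in lysate 1 alone and 0.609 without ribosomal protein, histone and receptor genes. The cause of these changes was not tested. Of 154 named genes with a test, 115 kept their direction and their side of the threshold under every alternative run. Of the 145 called, 28 lost the call when 1 WT library was left out and 14 under another alternative, and of the 154 Hist1h1e alone, not called, changed sign (-0.17 against 0.19 under quantile normalization). Of 624 list medians under an alternative, 526 moved by less than the SD between lysates, and of the 39 lists 1, the motile cilium genes, changed the sign of its median. Depth is inferred, not stated, and values of genes with few reads, such as Scarna8, are imprecise.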
